A study of Mus musculus with 15 samples.

Results

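The genes described here are 10 markers of T cells and cytotoxic lymphocytes, chosen by symbol from the 55450 genes of the count table and mapped from Ensembl identifiers: *Cd3e*, *Cd3d*, *Cd3g*, *Cd8a*, *Cd8b1*, *Cd4*, *Gzma*, *Gzmb*, *Gzmk* and *Nkg7*. All 10 were present in the table, and 9 of them were among the 15808 that had enough counts to be tested, *Gzmk* being the exception. RNA was sequenced from the livers of 15 female C57BL/6 mice from the National Institute on Aging, with 5 mice in each of 3 groups. Adult mice (A1 to A5, 6 months old) and Old mice (O1 to O5, 22 months old) received 120 μL corn oil as vehicle, and PDX mice (P1 to P5, 22 months old) received Protectin DX, a lipid mediator, at 30 ng/g body weight in corn oil. These are the ages in the labels and at the start of the study. By the study's timeline the mice were some months older when tissue was collected at the endpoint. Every mouse was therefore gavaged daily, for 9 weeks by the treatment protocol and 8 weeks by the series' design text. The comparisons ask how these genes differ with age (Old versus Adult) and with PDX treatment at the same age (PDX versus Old), and how treated aged mice differ from Adult mice (PDX versus Adult).

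T cells recognize antigen through a receptor that signals through the CD3 chains, and the CD4 and CD8 coreceptors bind the antigen-presenting molecules seen by helper and cytotoxic T cells, respectively. Cytotoxic T cells and natural killer cells kill target cells with granzymes, proteases stored in granules, and NKG7 is a membrane protein of these granules. The liver holds resident T cells, natural killer cells and innate lymphoid cells in its sinusoids, and T cells that make granzyme K are known to accumulate in several tissues of old mice. In bulk liver RNA, fewer cells of a type and less RNA per cell cannot be told apart.

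Sequences of the 250 bases before the RefSeq transcription start (build GRCm38.p6) were found for 8 of the 10 genes, the promoters of *Cd8b1* and *Cd4* not being in the table. They were searched on both strands for the letters of a T-box motif (GGTGTGA), a RUNX motif (TGTGGT) and an ETS motif (AGGAAG), 3 factor families known to act in T cells and natural killer cells. A T-box match was found in 2 of the 8 genes (*Gzmk* and *Nkg7*) and in 3.33% of all 32851 promoters of the same length. A RUNX match was found in 3 of the 8 (*Gzma*, *Gzmb* and *Nkg7*) and in 14% of all promoters. An ETS match was found in 3 of the 8 (*Cd3e*, *Cd3d* and *Nkg7*) and in 29.5% of all promoters. The promoters given next are those of 1 receptor gene and 3 effector genes, shown because together they hold matches to all 3 motifs, read 5′ to 3′ on the gene's strand with the matched letters in capitals. They lie at chr13:113180966-113181215 (minus strand) for *Gzmk*, chr7:43436888-43437137 (plus strand) for *Nkg7*, chr14:56262335-56262584 (minus strand) for *Gzmb* and chr9:45009612-45009861 (minus strand) for *Cd3e*. The RefSeq start need not be the start of the gene model that was counted. A match is a description of letters and not evidence of binding.
Gzmk: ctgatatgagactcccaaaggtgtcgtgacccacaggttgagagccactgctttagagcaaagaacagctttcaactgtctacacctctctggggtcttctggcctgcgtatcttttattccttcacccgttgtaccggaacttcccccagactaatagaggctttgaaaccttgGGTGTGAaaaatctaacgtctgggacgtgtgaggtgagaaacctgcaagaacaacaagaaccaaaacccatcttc
Nkg7: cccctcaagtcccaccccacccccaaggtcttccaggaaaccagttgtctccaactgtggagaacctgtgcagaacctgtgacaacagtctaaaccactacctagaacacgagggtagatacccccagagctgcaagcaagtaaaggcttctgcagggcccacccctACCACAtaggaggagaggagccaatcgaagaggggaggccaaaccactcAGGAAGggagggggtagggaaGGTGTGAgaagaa
Gzmb: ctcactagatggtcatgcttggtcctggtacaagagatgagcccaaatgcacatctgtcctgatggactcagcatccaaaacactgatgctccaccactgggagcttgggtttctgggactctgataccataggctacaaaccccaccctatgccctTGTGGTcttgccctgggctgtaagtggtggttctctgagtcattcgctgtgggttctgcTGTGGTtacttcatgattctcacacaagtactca
Cd3e: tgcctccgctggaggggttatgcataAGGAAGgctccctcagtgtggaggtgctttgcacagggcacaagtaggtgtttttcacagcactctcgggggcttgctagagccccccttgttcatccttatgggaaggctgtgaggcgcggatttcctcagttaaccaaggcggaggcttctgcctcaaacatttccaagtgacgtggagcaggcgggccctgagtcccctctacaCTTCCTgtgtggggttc

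The libraries held 22424383 to 36070835 read pairs counted in genes, and levels are given as CPM, the count of a gene scaled to its library's total after TMM adjustment. A count of 0 in 1 library allows a level of up to 0.0843 to 0.137 CPM (3 counts), depending on the library. Among the Old mice, O2 and O5 stood apart from the others. O2 was the highest of the 15 mice for all 10 genes, and for 20.1% of all genes tested, while O5 was the lowest Old mouse for 7 of the 10. Among PDX mice, P3 was the highest for 9 of the 10 genes, *Gzmb* being the exception. Values without O2, and without P3 or O5 where they changed the result, are therefore given beside those on all mice. The study's methods state that mice were investigated in batches euthanized together, and the batch of each mouse is not given in the sources used here, so the part of a batch in these 3 mice was not tested.

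All of these genes were weakly expressed in liver. On a scale of CPM per kilobase of exon, the Adult medians ran from 0.641 CPM/kb for *Nkg7* down through *Gzma* (0.599), *Gzmb* (0.466), *Cd3g* (0.313), *Cd3d* (0.294), *Cd4* (0.199), *Cd3e* (0.161), *Cd8a* (0.131) and *Cd8b1* (0.116), with *Gzmk* at 0. In PDX mice, *Nkg7* (2.31 CPM/kb) and *Gzmb* (1.29) again had high median levels. *Gzmk* (0.489 CPM/kb) then lay between *Cd8a* (0.550) and *Cd8b1* (0.479). In O2, the order changed at the top, since *Cd4* reached 28.7 CPM/kb against 16.0 for *Nkg7* and 1.80 for *Cd3e*. Neighbours in the Adult order overlapped among the mice, except that every mouse had more *Gzmb* than any mouse had *Cd3g*, and *Cd8b1*, by counts alone, likewise lay above *Gzmk*. All neighbours in the PDX order overlapped.

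**Figure D1:**
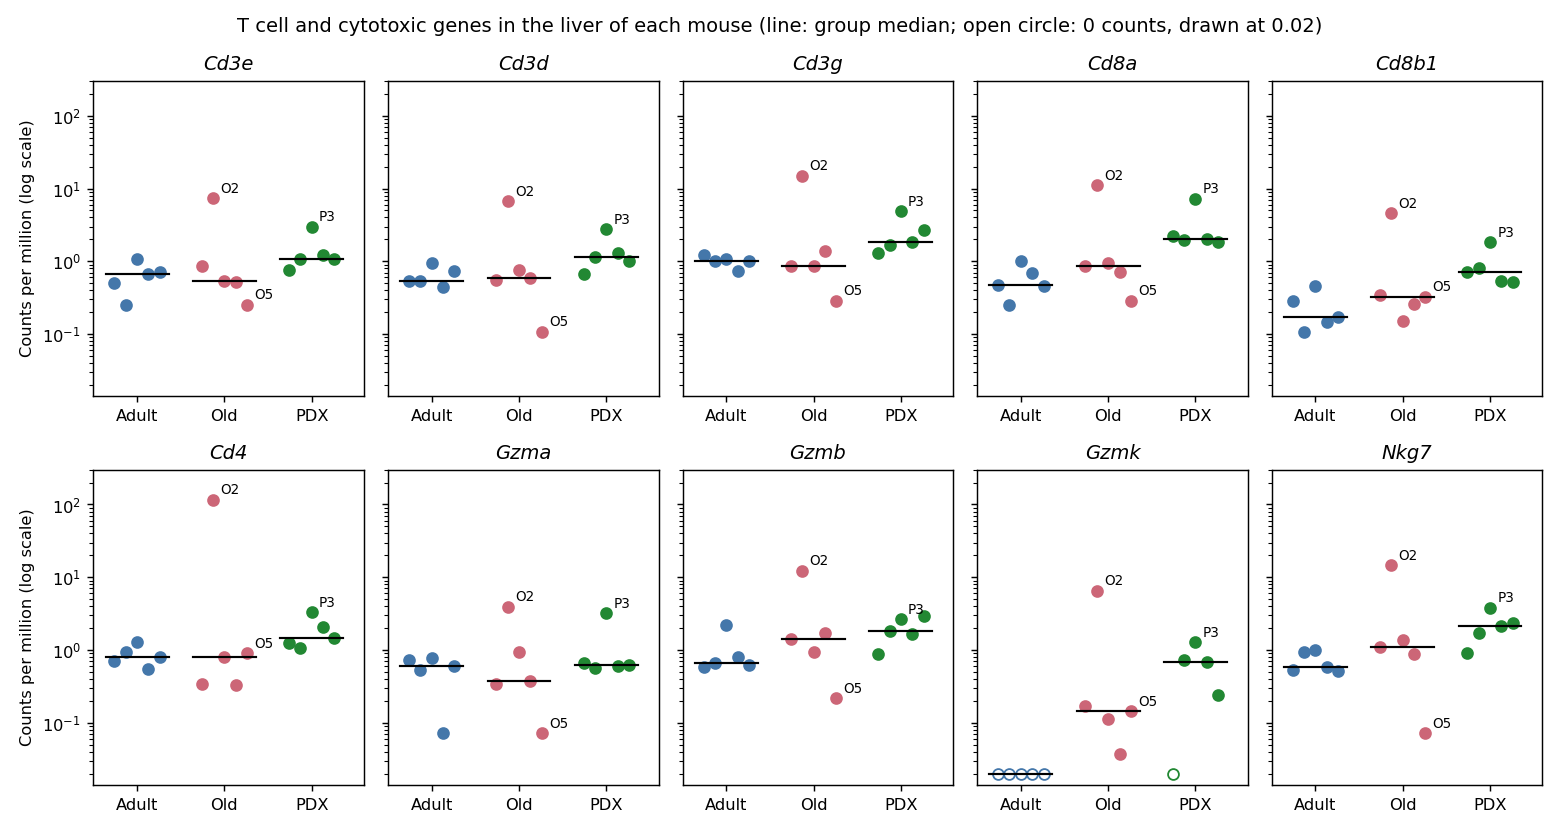
Level of each of the 10 genes in each of the 15 mice, in CPM on a log axis, by group (5 mice each), with the group median as a line and 0 counts as open circles drawn at 0.02. O2 is the highest mouse in every panel, at 116 CPM for *Cd4*, and the *Cd8a* and *Cd8b1* points of the PDX mice lie above all Adult points.

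The genes of the CD3 chains carry the signal of the T cell receptor. *Cd3e* (ENSMUSG00000032093, chromosome 9, 44998740 to 45009627, mm10) had 0.506, 0.247, 1.09, 0.659 and 0.717 CPM in Adult mice, 0.849, 7.34, 0.528, 0.520 and 0.253 CPM in Old mice, and 0.750, 1.08, 3.00, 1.21 and 1.07 CPM in PDX mice. The groups overlapped, with O2 at 14 times the median of the other Old mice and P3 at 2.79 times that of the other PDX mice. *Cd3d* had 0.534, 0.528, 0.958, 0.439 and 0.746 CPM in Adult mice, 0.552, 6.64, 0.754, 0.594 and 0.108 CPM in Old mice, and 0.671, 1.16, 2.74, 1.29 and 0.998 CPM in PDX mice. *Cd3g*, its divergent neighbour on chromosome 9, had 1.21, 1.02, 1.09, 0.732 and 1.00 CPM in Adult mice, 0.849, 15.0, 0.867, 1.37 and 0.289 CPM in Old mice, and 1.30, 1.65, 4.92, 1.86 and 2.68 CPM in PDX mice. For *Cd3g*, every PDX mouse was above every Adult mouse, whereas the *Cd3d* and *Cd3e* groups overlapped. *Cd3e* is overlapped by 2 annotated genes, Gm48719 on the opposite strand and Gm48720 on its own, so its counts may be incomplete.

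*Cd8a* and *Cd8b1*, neighbouring genes on chromosome 6 that encode the chains of the CD8 coreceptor, were the genes in which PDX mice stood most clearly apart from Adult mice. *Cd8a* (ENSMUSG00000053977, chromosome 6, 71373427 to 71379173) had 0.478, 0.247, 1.00, 0.695 and 0.459 CPM in Adult mice, 0.849, 11.1, 0.942, 0.706 and 0.289 CPM in Old mice, and 2.25, 1.97, 7.25, 2.00 and 1.82 CPM in PDX mice. The lowest PDX mouse was above all Adult mice and above all Old mice but O2. *Cd8b1* had 0.281, 0.106, 0.456, 0.146 and 0.172 CPM in Adult mice, 0.340, 4.56, 0.151, 0.260 and 0.325 CPM in Old mice, and 0.710, 0.803, 1.83, 0.536 and 0.516 CPM in PDX mice. The same order held, although *Cd8b1* rested on only 3 to 10 read pairs per Adult mouse.

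*Cd4*, the coreceptor of helper T cells, which some dendritic cells and macrophages also express, was dominated by a single mouse. It had 0.703, 0.951, 1.28, 0.549 and 0.803 CPM in Adult mice, 0.340, 116, 0.792, 0.334 and 0.902 CPM in Old mice, and 1.26, 1.08, 3.28, 2.04 and 1.48 CPM in PDX mice. O2 held 3956 read pairs of *Cd4*, which was 98.0% of the Old group's summed CPM and 205 times the median of the other Old mice, against 14 times for *Cd3e* and 14.2 times for *Cd8a*. Without O2, every PDX mouse was above every Old mouse. Markers of other leukocytes were also high in O2: the macrophage and dendritic cell lectin *Clec10a* was at 51.8 CPM, 61.5 times the median of the other Old mice, and the dendritic cell chemokine receptor *Xcr1* at 9.95 CPM, 41.6 times that median. Of the other dendritic cell markers listed, *Clec9a*, *Flt3* and *Batf3* were also highest in O2. By contrast, *Cd209a* (0.146 CPM in O2) was highest in O1, *Siglech* (0.146 CPM) and *Ccr9* (0.234 CPM) in P3, and *Zbtb46* (6.76 CPM) in A1. The part of such cells in the *Cd4* level was not tested.

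Of the granzyme genes, *Gzma* and *Gzmk* lie near each other on chromosome 13 and encode trypsin-like proteases, while *Gzmb* on chromosome 14 encodes a caspase-activating protease. *Gzma* had 0.731, 0.528, 0.775, 0.0732 and 0.603 CPM in Adult mice, 0.340, 3.92, 0.942, 0.372 and 0.0721 CPM in Old mice, and 0.671, 0.562, 3.19, 0.607 and 0.619 CPM in PDX mice. Apart from O2 and P3, its 3 groups overlapped. *Gzmb* had 0.590, 0.669, 2.19, 0.805 and 0.631 CPM in Adult mice, 1.40, 12.3, 0.942, 1.71 and 0.216 CPM in Old mice, and 0.868, 1.85, 2.65, 1.64 and 2.92 CPM in PDX mice. The groups overlapped here too, with A3 above all the other Adult mice.

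*Gzmk* (ENSMUSG00000042385, chromosome 13, 113171608 to 113225908) was the only one of the 10 genes without a read pair in any Adult mouse. It had 4, 224, 3, 1 and 4 read pairs in Old mice (0.170, 6.55, 0.113, 0.0372 and 0.144 CPM) and 0, 18, 41, 19 and 7 in PDX mice (0, 0.723, 1.29, 0.679 and 0.241 CPM). All 5 Old mice and 4 of the 5 PDX mice thus had read pairs, unlike any Adult mouse. A count of 0 in 1 Adult library allows a level of up to 0.0843 to 0.137 CPM, and O4 lay below that range and O3 within it. These 2 mice can therefore not be placed above all Adult mice. A count of 0 in the 5 Adult libraries together allows a level of up to 0.0203 CPM (3 counts over the group). Against that limit, the pooled Old level of 1.70 CPM was at least 83.9-fold higher, and at least 5.66-fold higher without O2 (0.115 CPM from 12 read pairs). The pooled PDX level of 0.611 CPM was at least 30.2-fold higher, and at least 20.2-fold higher without P3. These limits cover counting error only. *Gzmk* was too sparse for the low-count filter, and without that filter the edgeR test gave adjusted p = 0.0577 for Old versus Adult and adjusted p = 0.152 for PDX versus Adult. The gene model overlaps *Esm1* on the opposite strand, and the counts were made by strand.

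*Nkg7* (ENSMUSG00000004612, chromosome 7, 43437073 to 43438249) had 0.534, 0.951, 1.00, 0.585 and 0.517 CPM in Adult mice, 1.10, 14.6, 1.36, 0.892 and 0.0721 CPM in Old mice, and 0.907, 1.73, 3.82, 2.11 and 2.34 CPM in PDX mice. Only P1 among the PDX mice fell within the Adult range. O5 held 2 read pairs, fewer than any other mouse, and O2 held 500.

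In the comparison of Old with Adult mice across all 15 mice, edgeR's quasi-likelihood test called none of the 9 tested genes at an adjusted p of 0.05, against 6.78% of all genes tested (1072 of 15808). At an unadjusted p of 0.05, 6 of the 9 were higher in Old mice, beside 17.9% of all genes. All 9 fitted changes were above 0, with a median log2 fold change of 1.87 beside 0.07 over all genes. The largest was that of *Cd4* (log2 fold change 4.79 ± 1.46 SE, adjusted p = 0.0585), followed by *Nkg7* (2.34 ± 0.90, adjusted p = 0.107), *Cd8b1* (2.31 ± 0.87, adjusted p = 0.103) and *Cd8a* (2.29 ± 0.86, adjusted p = 0.103). The CD3 genes ranged from 1.45 (*Cd3d*, adjusted p = 0.240) to 1.87 (*Cd3g*, adjusted p = 0.157). *Gzmb* (1.79, adjusted p = 0.158) and *Gzma* (1.07, adjusted p = 0.435) were further from the threshold.

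These values rested on O2. Without it, none of the 9 genes was called, beside 3.38% of all genes called higher, and none had an unadjusted p under 0.05. Their log2 fold changes ran from -0.51 (*Cd4*) to 0.30 (*Cd8a*) with a median of -0.25, and the smallest edgeR adjusted p was 0.492. Without O5 instead, *Cd4* (adjusted p = 0.0324), *Nkg7* (0.0353), *Gzmk* (0.0391) and *Cd8a* (0.0480) passed the edgeR test, beside 8.66% of all genes called higher in that fit. *Cd4* and *Gzmk* passed without O1, without O3 or without O4 (edgeR adjusted p of 0.0313 to 0.0458), beside 7.64%, 8.55% and 7.44% of all genes. In these fits, and in that without O5, *Gzmk* passed the low-count filter only through its counts in O2, P2, P3 and P4. Its calls are therefore tied to the filter. DESeq2's Wald test called *Nkg7* (adjusted p = 0.0323), beside 11.2% of all genes called higher, and returned no p for the 6 CD3, CD8 and CD4 genes. Among the 15808 genes, 3.65% had every Old mouse above every Adult mouse, and this was so for none of the 9 tested genes. By counts alone it was so for *Gzmk*, with or without O2, although O3 held 3 read pairs and O4 held 1, too few to place them above a count of 0. The Old mice enter both this comparison and the next, so the values of the 2 are not independent.

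**Figure D2:**
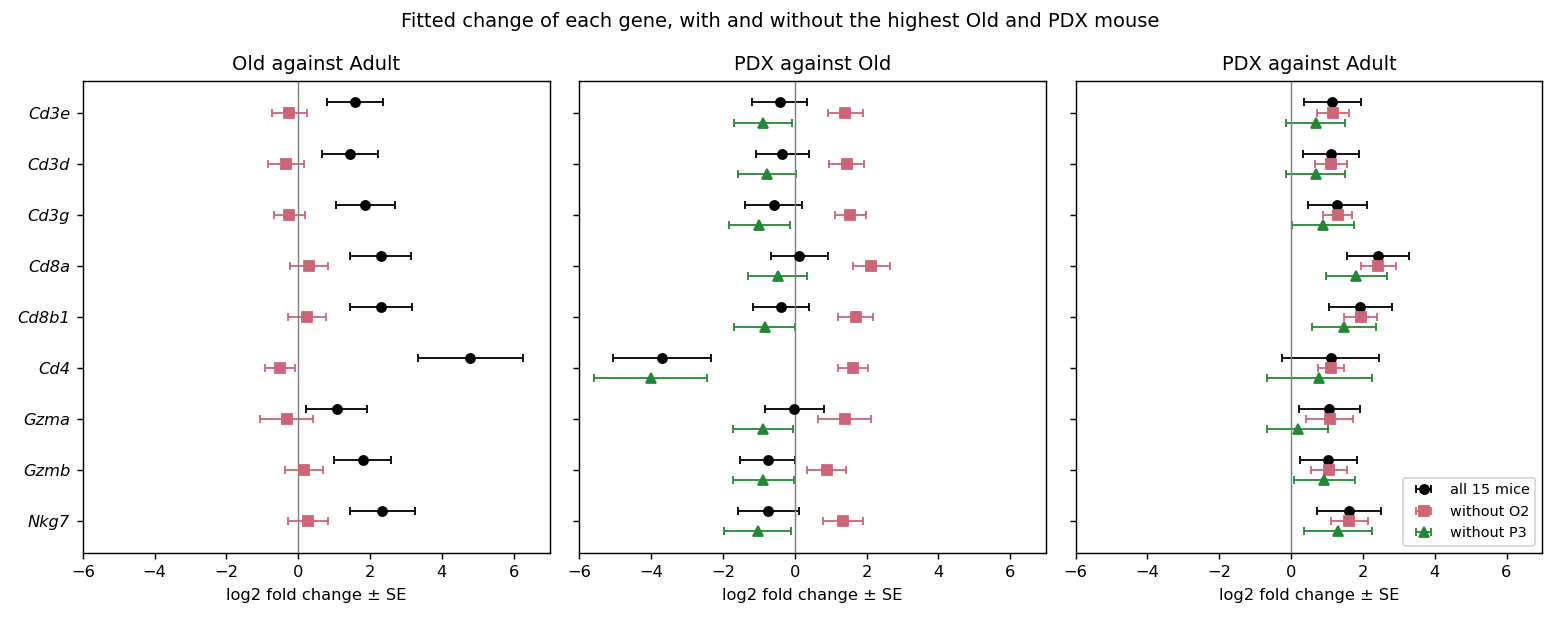
Log2 fold change ± SE of the 9 tested genes in each comparison, fitted with edgeR on all 15 mice (circles), without O2 (squares) and without P3 (triangles, where PDX mice are compared). Leaving out O2 moves every Old versus Adult value to between -0.51 and 0.30 and every PDX versus Old value to 0.89 or more, while the PDX versus Adult value of *Cd8a* is 2.42 with O2 and 2.43 without it, with a smaller error.

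In the comparison of PDX with Old mice, no gene of the 15808 passed the edgeR test (0% called at an adjusted p of 0.05, and 0% at 0.25), and the 9 tested genes had adjusted p-values of 0.793 to 0.997. Over all genes, 834 had an unadjusted p under 0.05. For the 9 genes, the log2 fold changes ran from -3.69 ± 1.37 (*Cd4*) to 0.13 ± 0.79 (*Cd8a*), with a median of -0.42 beside -0.07 over all genes. Without O2, all 9 were above 0, from 0.89 ± 0.54 (*Gzmb*, adjusted p = 0.544) to 2.13 ± 0.52 (*Cd8a*, adjusted p = 0.297). *Cd4* was then at 1.62 ± 0.41 (adjusted p = 0.297). *Cd8a*, *Cd8b1* and *Cd4* had every PDX mouse above each of the other 4 Old mice, which was so for 1.54% of all genes. That share is not a like background. O2 was left out for being highest in these same genes, whereas it was the highest mouse for 20.1% of all genes. With O2, PDX and Old mice overlapped for each of these genes. Without P3, all 9 were below 0, from -4.01 (*Cd4*) to -0.47 (*Cd8a*), with edgeR adjusted p-values of 0.845 to 0.896. The sign of these values thus depended on O2, and no gene was called with or without it.

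The comparison of PDX with Adult mice shares its mice with the other two comparisons, and in the fit on all 15 mice its error also rests on the Old mice. None of the 9 genes passed the edgeR test, against 2.66% of all genes (420 of 15808). All 9 log2 fold changes were above 0, with a median of 1.15. *Cd8a* was at 2.42 ± 0.86 (adjusted p = 0.134), *Cd8b1* at 1.93 ± 0.87 (0.223), *Nkg7* at 1.61 ± 0.89 (0.317) and *Cd3g* at 1.29 ± 0.82 (0.394). The other 5 lay between 1.04 and 1.15. *Cd3g*, *Cd8a* and *Cd8b1* had every PDX mouse above every Adult mouse, beside 10.5% of all genes. Without P3, *Cd8a* was at 1.81 ± 0.85 (edgeR adjusted p = 0.310).

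The calls in this comparison changed with the mice included. Fitted on the 10 PDX and Adult mice alone, edgeR called 6 of the 9 genes higher in PDX mice, beside 16.1% of all genes: *Cd8a* (log2 fold change 2.45 ± 0.48, adjusted p = 0.00306), *Nkg7* (1.64 ± 0.36, 0.00585), *Cd8b1* (1.96 ± 0.47, 0.00909), *Cd3g* (1.31 ± 0.34, 0.0144), *Cd4* (1.13 ± 0.33, 0.0251) and *Cd3d* (1.13 ± 0.37, 0.0404). *Cd3e* (adjusted p = 0.0584), *Gzmb* (0.0727) and *Gzma* (0.199) did not pass. Without P3 as well, 4 of the 9 passed, beside 14.3% of all genes: *Cd8a* (1.84 ± 0.32, adjusted p = 0.00261), *Nkg7* (0.0125), *Cd8b1* (0.0184) and *Cd3g* (0.0226). With all groups but without O2, 2 of the 9 passed, *Cd8a* (adjusted p = 0.00685) and *Cd8b1* (0.0157), beside 7.76% of all genes. Without O2 and O5, *Gzmk* entered the test and 7 of the 10 passed, beside 14.4% of all genes. *Gzmk* passed the low-count filter in that fit only through its levels in PDX mice, while no read pair was counted in Adult mice. Its test there is therefore tied to the filter. *Gzma* passed in none of these fits, and without P3 its log2 fold change was 0.19 ± 0.44.

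Ratios between genes within a mouse were compared next. At such low counts they depend in part on the prior count of 2. Of 8 ratios in 3 comparisons, none passed after adjustment over the 24 tests, for which an exact test of 5 against 5 mice, with a smallest possible p of 0.00794, could give at best 0.190 for a single ratio. The log2 *Cd8a*/*Cd3e* ratio came closest. It was -0.14 ± 0.25 (SD, n = 5) in Adult mice, 0.38 ± 0.31 in Old mice and 1.00 ± 0.36 in PDX mice. PDX mice were above Adult mice without overlap (difference 1.14, p = 0.00794 by an exact permutation of the mice, two-sided, and 0.190 after adjustment). The difference was 0.52 for Old versus Adult and 0.62 for PDX versus Old, with p = 0.0238 in each exact permutation test (adjusted p = 0.190). All 5 mice of the first group lay above the second group's mean in each of these comparisons. O2, at 0.59, and P3, at 1.26, lay within the range of their groups. Without P3, the PDX versus Adult difference was 1.07 (exact permutation p = 0.00794, adjusted p = 0.190). Without O2, the Old versus Adult difference was 0.47 and the PDX versus Old difference 0.67 (exact permutation p = 0.0397 and adjusted p = 0.238 for each).

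The log2 *Gzmb*/*Cd8a* ratio was 0.63 ± 0.48 (SD, n = 5) in Adult mice, 0.34 ± 0.60 in Old mice and -0.49 ± 0.88 in PDX mice (PDX versus Adult difference -1.12, exact permutation p = 0.0397, adjusted p = 0.190). In 4 of 5 PDX mice, the ratio lay below that of every Adult mouse. Without P3 the difference was -0.88 (exact permutation p = 0.0714, adjusted p = 0.286). The log2 *Gzmk*/*Cd8a* ratio was -3.08 ± 0.66 in Adult mice, where no *Gzmk* was counted and it reflects the prior count and *Cd8a*, against -1.75 ± 0.97 in Old mice (difference 1.33, exact permutation p = 0.0397, adjusted p = 0.190). Without O2 that difference was 1.08 (exact permutation p = 0.0635, adjusted p = 0.305). The log2 *Cd4*/*Cd3e* ratio was 3.97 in O2 and between -1.17 and 1.69 in the 14 other mice. Against the leukocyte gene *Ptprc*, which encodes CD45, the log2 ratio of *Cd3e* was -4.18 ± 0.55 in Adult, -4.56 ± 0.86 in Old and -4.64 ± 0.51 in PDX mice, and no comparison of it had an exact permutation p below 0.183.

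**Figure D3:**
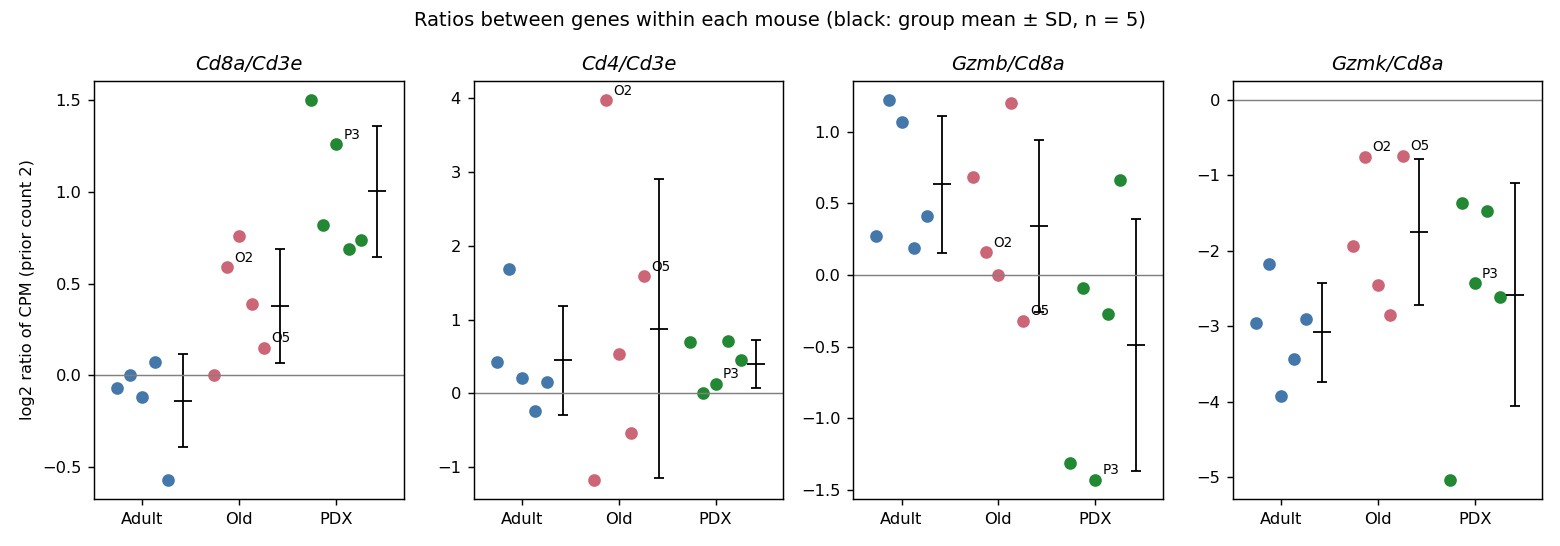
Log2 ratio between the CPM of 2 genes in each mouse (prior count 2), by group, with the group mean ± SD (n = 5) in black. The *Cd8a*/*Cd3e* ratio has means of -0.14 in Adult, 0.38 in Old and 1.00 in PDX mice, and the *Cd4*/*Cd3e* ratio of O2 lies at 3.97.

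Within groups, the 9 tested genes varied together from mouse to mouse. After subtracting group means from log2 CPM, the 36 pairs had Pearson's r from 0.69 to 0.97 (median 0.86) and Spearman's rho from 0.29 to 0.83 (median 0.63) over 15 mice. By permutation within groups with adjustment over the 36 pairs, 29 pairs passed for r and 19 for rho. The highest was *Cd3e* with *Cd8a* (r = 0.97, permutation adjusted p = 0.0051, rho = 0.83, permutation adjusted p = 0.024), which stayed at r = 0.89 without the 2 mice farthest from the median, O2 and P3. The lowest was *Cd8b1* with *Nkg7* (r = 0.69, and 0.08 without O2 and P3). Without the 2 farthest mice of each pair, the median r was 0.60 (range 0.08 to 0.89), so much of the covariation rested on O2, P3 and O5. As a description, the genes outside the lists used here whose within-group pattern was most like *Cd3e* over the 15 mice were *Pkib* (r = 0.944), *Ms4a4b* (0.944), *Plekho1* (0.941), *Abcg1* (0.940), *Gnai2* (0.938) and *Fbxw17* (0.938). For *Gzmk* they were *Maml2* (0.949), *Adap1* (0.943), *Slc16a3* (0.938), *Il21r* (0.937), *Nck2* (0.937) and Gm5150 (0.936), and for *Cd4*, examined after its level in O2 was seen, *Arhgap39* (0.982), *Trpv4* (0.978), *Fxyd5* (0.978), *Plxna1* (0.971), *Sh3bgrl3* (0.968) and *Arpc1b* (0.967). O2 was the highest mouse for each of these genes.

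The summed levels of the receptor chain genes and of the receptor signalling genes were, like those of the 10 genes, highest in O2 and lowest in O5. In the signalling sum, the lowest place of O5 rested on *Zap70*, which was at 1.52 CPM in O5. *Zap70* averaged 14 CPM of a mean sum of 41.3 CPM in Adult mice. Unlike the 10 genes, it was highest in O1 and at 14.2 CPM in O2. Of 8 genes for receptor constant chains and the CD3 zeta chain, 5 were tested and none was called in Old versus Adult mice (median log2 fold change 1.44, and 0.01 without O2), beside 4.71% of all genes called higher. *Trac*, the alpha chain constant gene, had most counts, at 0.862 ± 0.498 CPM in Adult, 2.14 ± 2.99 in Old and 1.97 ± 1.24 in PDX mice (SD, n = 5), with O2 at 7.46 CPM. *Trbc1* and *Trbc2* are near-identical, so reads could be split between them. Of 22 genes of receptor signalling and costimulation, 20 were tested and 1 was called higher in Old mice, *Ptpn22*, a phosphatase that restrains receptor signalling (log2 fold change 2.35 ± 0.57, edgeR adjusted p = 0.0295). Without O2 it was at 1.56 ± 0.44 (adjusted p = 0.0567). The adaptor *Lcp2*, with most counts in that list, was at 1.5 ± 0.57 (edgeR adjusted p = 0.104). Of 17 T cell transcription factors and naive or memory receptors, 15 were tested and 1 was called higher, *Ikzf3*, a lymphocyte zinc finger factor (3.26 ± 0.76, edgeR adjusted p = 0.0269, and 2.31 ± 0.63, adjusted p = 0.0519, without O2). The sphingosine phosphate receptor gene *S1pr1*, which endothelial cells also express, had most counts there (-0.66 ± 0.37, edgeR adjusted p = 0.257).

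Among 16 other cytotoxic granule and death ligand genes, 12 were tested and 2 were called higher in Old mice, beside 4.71% of all genes. These were the chemokine genes *Ccl4* (4.12 ± 1.04, edgeR adjusted p = 0.0331) and *Ccl5* (3.29 ± 0.94, 0.0480). *Ccl5* reached 47.5 CPM in O2 against 1.05 to 2.41 CPM in the other Old mice, and without O2 neither passed (1.93 ± 0.63, edgeR adjusted p = 0.0909, for *Ccl4* and 0.77 ± 0.37, 0.236, for *Ccl5*). *Srgn*, encoding the granule proteoglycan serglycin, had most counts (1.35 ± 0.41, edgeR adjusted p = 0.0592). Of 20 natural killer and ILC1 genes, 11 were tested and 2 were called higher, the receptor gene *Cd244a* (2.96 ± 0.73, edgeR adjusted p = 0.0300, and 1.72 ± 0.50, 0.0628, without O2) and the integrin gene *Itga2* (4.85 ± 1.18, 0.0297, and 5.07 ± 1.21, 0.0350, without O2). *Itga2* was led by O5, with 11.7 CPM against 0.936 CPM in O2, and without O5 it was at 2.37 (edgeR adjusted p = 0.0418). *Itga1*, with most counts, was at -0.15 ± 0.14 (edgeR adjusted p = 0.498), and the list had a median of 0.69, and of -0.41 without O2. Of 18 inhibitory receptor and chronic stimulation genes, 13 were tested and 2 were called higher, *Havcr2* (3.18 ± 0.78, edgeR adjusted p = 0.0305, and 1.34 ± 0.33, 0.0406, without O2) and *Ctla4* (4.59 ± 1.09, 0.0280, and 3.90 ± 1.04, 0.0497, without O2). *Havcr2* encodes TIM-3 and is also found on myeloid cells. *Ctla4*, a brake on T cell activation, had 230 read pairs in O2, 130 in O3 and 42 in O5. *Bhlhe40*, with most counts, was at 0.17 ± 0.32 (edgeR adjusted p = 0.766).

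Of 18 lymphocyte chemokine, chemokine receptor and adhesion genes, 16 were tested and 3 were called higher in Old mice, beside 4.71% of all genes. *Cxcl13*, a chemokine that attracts B cells and some helper T cells, was at 3.14 ± 0.959 CPM in Adult, 196 ± 382 CPM in Old and 40.3 ± 35.6 CPM in PDX mice (SD, n = 5; log2 fold change 5.96 ± 1.39, edgeR adjusted p = 0.0269). O2 was at 877 CPM, and without it *Cxcl13* was at 3.02 ± 0.83 (adjusted p = 0.0537). The adhesion molecule genes *Vcam1* (2.22 ± 0.56, edgeR adjusted p = 0.0337) and *Icam1* (1.74 ± 0.40, 0.0264) passed. Without O2, *Vcam1* was at 1.06 ± 0.27 (edgeR adjusted p = 0.0452) and *Icam1* at 1.6 ± 0.41 (0.0457). *Icam1* was highest in O5, at 149 CPM, and without O5 it was at 1.2 (edgeR adjusted p = 0.0251). In PDX versus Adult mice, no gene of these 7 T cell, cytotoxic and homing lists was called on all 15 mice. On the 10 PDX and Adult mice alone, edgeR called higher 2 of 4 receptor chain genes, 10 of 19 signalling genes, 7 of 13 factor and memory genes, 9 of 11 other cytotoxic genes, 2 of 10 natural killer and ILC1 genes, 5 of 12 inhibitory genes and 12 of 16 chemokine and adhesion genes, beside the 16.1% of all genes. Called lower in that fit were 1 factor and memory gene and 1 inhibitory gene. By the same fit, 8 of 8 genes of all leukocytes, 7 of 7 B cell markers, 9 of 10 Kupffer cell and monocyte markers and 7 of 7 neutrophil markers were called higher. The calls were 4 of 7 for dendritic cell markers, 4 of 5 for plasma cell markers and 0 of 1 for mast cell and basophil markers. Without P3 as well, the calls were 0 of 4 receptor chain genes, 7 of 19 signalling genes, 5 of 13 factor and memory genes, 8 of 11 other cytotoxic genes, 0 of 9 natural killer and ILC1 genes, 5 of 12 inhibitory genes and 10 of 16 chemokine and adhesion genes, beside 14.3% of all genes. Those of the other leukocytes were then 8 of 8, 7 of 7, 8 of 10, 7 of 7, 4 of 7, 4 of 5 and 0 of 1 in the same order. Called lower were again 1 factor and memory gene and 1 inhibitory gene.

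The summed levels of markers of other leukocytes were also highest in O2, except that of the plasma cell markers, and their part in the results above was not tested. The summed level of the 10 genes was 4.68 to 9.85 CPM in Adult mice, 2.67 to 7.39 CPM in Old mice without O2 and 9.39 to 34.0 CPM in PDX mice, with O2 at 198 CPM. The summed level of 8 genes of all leukocytes was 68.0 to 100 CPM, 99.8 to 218 CPM and 154 to 351 CPM in the same order, with O2 at 899 CPM. For 7 B cell markers it was 7.33 to 13.7 CPM, 12.1 to 106 CPM and 25.7 to 69.9 CPM, with O2 at 136 CPM, O3 at 106 CPM and P1, at 69.9 CPM, above P3 at 49.6 CPM. For 10 Kupffer cell and monocyte markers it was 468 to 707 CPM, 351 to 981 CPM and 809 to 1697 CPM, with O2 at 3451 CPM. For 9 dendritic cell markers it was 10.4 to 14.4 CPM, 10.0 to 17.6 CPM and 13.6 to 22.7 CPM, with O2 at 95.3 CPM. For 9 neutrophil and granulocyte precursor markers it was 5.04 to 10.2 CPM, 21.6 to 76.9 CPM and 50.7 to 190 CPM, with O2 at 198 CPM and P3 the lowest PDX mouse. The plasma cell sum was lowest in O2, at 421 CPM. Most of that sum was *Xbp1* (208 CPM) and *Sdc1* (187 CPM). Of the other plasma cell markers, *Mzb1* (6.23 CPM) and *Prdm1* (6.76 CPM) were highest in O2, while *Jchain* and *Tnfrsf17* were highest in P3. *Jchain* was at 12.6 CPM in O2, within the range of the other Old mice (4.98 to 15.9 CPM). The B cell marker *Ms4a1* was highest in O3.

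**Figure D4:**
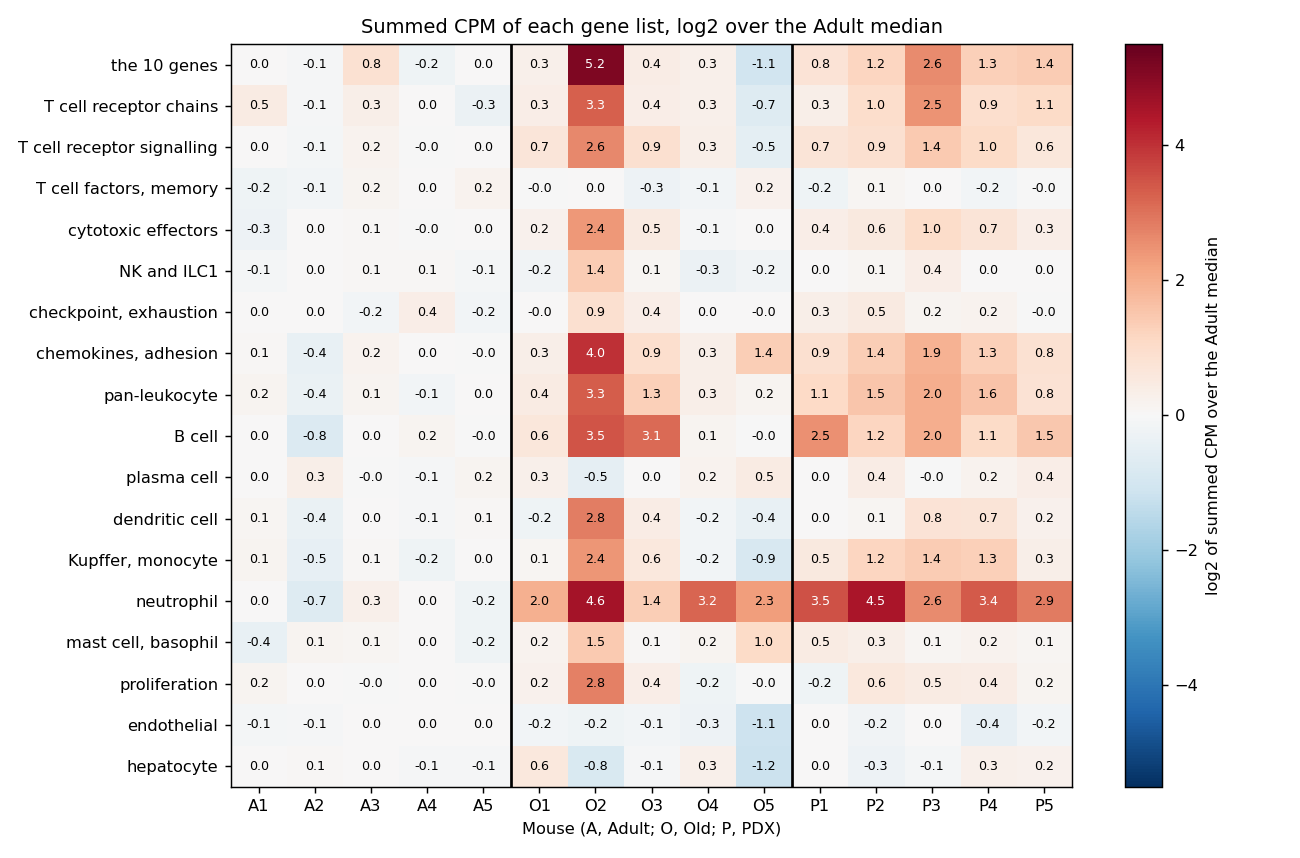
Summed CPM of the 10 genes and of 17 other gene lists in each mouse, as log2 over the median of the Adult mice, coloured from blue (lower) to red (higher). O2 is the darkest red column for the 10 genes and for most leukocyte lists, and the leukocyte lists of the PDX mice are mostly above 0.

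By the edgeR test of Old versus Adult mice, 3 of 7 B cell markers were called higher (*Ms4a1*, *Cd79a* and *Cd79b*, log2 fold changes 2.30 to 3.11), 2 of 5 tested plasma cell markers (*Mzb1* at 3.51 and *Prdm1* at 2.36), 1 of 10 Kupffer cell and monocyte markers (*Itgam* at 3.60), 1 of 8 genes of all leukocytes (*Coro1a* at 1.82), 1 of 6 tested proliferation genes (*Mki67* at 3.27) and 5 of 7 tested neutrophil markers, with *Prtn3* at 6.72, *Mpo* at 6.41, *Elane* at 5.00 and *S100a8* at 3.30. None of 7 dendritic cell, 7 sinusoidal endothelial or 1 mast cell and basophil gene tested was called. Over all genes, 4.71% were called higher and 327 of 15808 lower. Of 9 hepatocyte markers, *Cyp2e1* was called lower (fell by 1.5 on the log2 scale) and none higher. *Alb*, the hepatocyte albumin gene, was at 111332 ± 4037 CPM in Adult, 106556 ± 58156 CPM in Old and 120226 ± 22618 CPM in PDX mice (SD, n = 5), being lowest in O5 at 34724 CPM. Without O2, none of the B cell markers was called and 4 of 7 neutrophil markers were, including *Mpo* at 4.44, *Elane* at 3.50 and *S100a8* at 1.98. Over all genes, 3.38% were called higher in that fit. *Prdm1* (1.28, edgeR adjusted p = 0.0821), *Mki67* (1.40, 0.0860) and *Coro1a* (0.96, 0.0712) were then not called, while *Mzb1* (2.73, 0.0214) and *Itgam* (2.36, 0.0196) were.

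Read pairs on variable segments of the T cell receptor, examined after the member counts were seen, were few. Summed over 35 beta chain variable genes they were 10 to 26 in Adult mice, 9 to 15 in the Old mice other than O2, and 13 to 69 in PDX mice, with 181 in O2. In O2 they fell on 17 of the 35 genes, the most used being *Trbv16* with 19.9% (36 read pairs, 95% Clopper-Pearson interval 14.3 to 26.5%). In P3, 69 read pairs fell on 15 genes, with *Trbv13-1* at 21.7% (12.7 to 33.3%). The 65 alpha chain read pairs of O2 fell on 22 of 128 genes, the most used holding 16.9% (8.76 to 28.3%). The intervals cover counting error only, and they do not allow for the choice of the most used gene from these same counts, which raises its share.

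By frailty status in the labels, 6 of the 10 Old and PDX mice were Frail and 4 were not. In an edgeR fit with a treatment term, 0% of 16887 genes passed, none of the 10 genes among them, and no gene had an adjusted p below 1, while 258 had an unadjusted p under 0.05. The log2 fold changes of the 10 genes ran from -0.27 (*Gzma*) to 1.34 (*Cd4*), with standard errors of 1.03 to 2.38. O2 was in the Frail group, and P3 was not. Without O2, 2 of the 10 were above 0, from -0.88 (*Cd8b1*) to 0.24 (*Cd4*), with a median of -0.48. Without P3, all 10 were above 0, from 0.37 (*Cd8b1*) to 2.16 (*Cd4*), with a median of 0.95. Leaving out O1 also left 2 of the 10 above 0, with a median of -0.45, and leaving out P4 or P5 left all 10 above 0. None of these fits called any gene of the 10. The sign of these values thus depended on which mouse was left out.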

How the data were processed

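Liver RNA of 15 mice was sequenced as paired-end reads from directional, poly(A)-selected libraries. Per the labels and the study's methods, the authors aligned reads to mm10 with STAR 2.6.0c and counted unique, properly paired fragments on the gene's strand with featureCounts (Subread 1.6.2), leaving out mitochondrial reads. The authors deposited raw counts per gene, and log2 values from the variance-stabilizing transformation of DESeq2 1.23.10. All columns were mapped to mice (0 unmapped).

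The deposited counts were tested with edgeR 4.0.16 (quasi-likelihood test, TMM factors, filterByExpr with a count of 10 and a total of 15) in R 4.3.3, on all 15 mice with the group as the factor. Benjamini-Hochberg adjustment covered all genes tested, with a threshold of 0.05. Fold changes are log2 with SE. DESeq2 1.42.0, limma 3.58.1 on the deposited log2 values, other size factors and filters, the 2 groups alone, a replicate block and each mouse left out were the alternatives. CPM is the count scaled to the total of counted pairs times the TMM factor. Ratios used log2 CPM with a prior count of 2 and exact permutation tests (scipy 1.17.1). Correlations used 100000 permutations within groups. In simulated data of the Old versus Adult comparison with 200 genes changed by a log2 fold of 2, the edgeR test recovered 78% of them, with 6 false calls among 15627 genes. The changed genes were drawn at random from all tested genes, and no simulated mouse stood apart as O2 did. That share therefore does not describe the weakly expressed genes reported here.

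The genes and lists were chosen with earlier results of these data known. All 10 genes are named. In every other list, genes past the threshold between Old and Adult are named, at most 4 in each direction, with the gene of most counts. Genes outside the lists most like *Cd3e* and *Gzmk* are the 6 with the highest r, among genes whose log2 CPM averaged 0 or more. Fits without P3 on the 2 groups alone, the receptor segments and the genes like *Cd4* were added after seeing the data. Nothing in the labels ties mice to litters or cages.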

Additional observations from a re-analysis of the deposited data

Results flagged for a closer look

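Dixon's test was applied to each gene and ratio in each group of 5 mice, 53 groups in all, of which chance alone marks about 1 in 20. It marked 16. For all 10 genes, O2 was well above every other Old mouse: *Cd3e* 7.34 CPM, *Cd3d* 6.64 CPM, *Cd3g* 15 CPM, *Cd8a* 11.1 CPM, *Cd8b1* 4.56 CPM, *Cd4* 116 CPM, *Gzma* 3.92 CPM, *Gzmb* 12.3 CPM, *Gzmk* 6.55 CPM, *Nkg7* 14.6 CPM. For 4 genes, P3 was well above every other PDX mouse: *Cd3e* 3 CPM, *Cd8a* 7.25 CPM, *Cd8b1* 1.83 CPM, *Gzma* 3.19 CPM. A3 lay above the other Adult mice for *Gzmb* at 2.19 CPM, and A2 had a log2 *Nkg7*/*Cd3e* ratio of 1.69, above the other Adult mice. The mice are the same for many of these values, so they are not separate findings, and the cause was not tested.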

How the results depend on the processing

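Of the 1072 genes called in Old versus Adult mice, the number became 665 without a low-count filter, 105 on those 2 groups only, 2524 with DESeq2 and 651 with limma on the deposited log2 values, and 156 to 2178 when 1 mouse was left out (156 to 243 without an Adult mouse, 691 without O2, 707 without P4, 2178 without O3 and 2115 without O5). The number of the 10 genes called was 1 with DESeq2 and 0 to 4 with a mouse left out. In PDX versus Adult mice, 420 genes became 4529 on those 2 groups only, 3935 without P3 as well, 1383 with DESeq2, 4004 without O2 and O5, and 166 to 1766 with 1 mouse left out (166 to 206 without an Adult mouse, 172 to 262 without P1, P2, P3 or P4, 1744 without O5 and 1766 without O2). Of the 10 genes, 6, 4 and 7 were called on the 2 groups only, without P3 as well, and without O2 and O5, and 0 to 2 with 1 mouse left out. The median r between the genes was 0.55 without O2 and O5.

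With the replicate number as a block, 237 genes were called in Old versus Adult mice. The numbers do not pair the mice, which are different animals: same-numbered mice had a mean correlation of deviations of -0.168 (Old and Adult), 0.092 (PDX and Old) and 0.031 (PDX and Adult).

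Values that turned in sign are log2 differences, none of them past the threshold. In Old versus Adult mice, without O2 and O5, the sign turned for *Cd3e* -0.01, *Cd4* -0.78, *Bhlhe40* -0.07, *Alb* 0.38, *Pcna* -0.10 and *Cd4*/*Cd3e* -0.84. In PDX versus Old mice, without O2 and O5, the sign turned for *Cd3e* 1.19, *Cd3d* 1.12, *Cd3g* 1.28, *Cd8b1* 1.82, *Cd4* 1.90, *Gzma* 1.05, *Gzmb* 0.57, *Nkg7* 0.98, *Cd4*/*Cd3e* 0.79, *Nkg7*/*Cd3e* -0.15, *Cd3e*/*Ptprc* 0.03 and *Gzmk*/*Ptprc* 0.49. In PDX versus Old mice, with limma on the deposited log2 values, the sign turned for *Cd3e* 0.24, *Cd3d* 0.32, *Cd3g* 0.37, *Cd8b1* 0.27, *Gzma* 0.27, *Gzmb* 0.09 and *Nkg7* 0.33. In PDX versus Old mice, with the replicate block, the sign turned for *Cd3e* 0.23, *Cd3d* 0.42, *Cd3g* 0.50, *Cd8b1* 0.36, *Cd4* 0.08, *Gzma* 0.42 and *Nkg7* 0.42. In PDX versus Old mice, with upper quartile factors, the sign turned for *Gzma* 0.06. In PDX versus Old mice, with no low-count filter, the sign turned for *Gzma* 0.01. In PDX versus Adult mice, with a prior count of 5, the sign turned for *Gzmk*/*Cd8a* -0.19. With 1 mouse left out, Old versus Adult log2 values ran for *Cd3e* from -0.25 to 1.86, *Cd3d* from -0.33 to 1.75, *Cd3g* from -0.25 to 2.16, *Cd4* from -0.51 to 5.11, *Gzma* from -0.32 to 1.37, *Trac* from -0.06 to 1.66, *Sdc1* from -0.28 to 0.06, *Alb* from -0.32 to 0.16, *Pcna* from -0.12 to 0.27, *Cd4*/*Cd3e* from -0.35 to 0.94. With 1 mouse left out, PDX versus Old log2 values ran for *Cd3e* from -0.89 to 1.41, *Cd3d* from -0.76 to 1.45, *Cd3g* from -0.98 to 1.55, *Cd8a* from -0.47 to 2.13, *Cd8b1* from -0.83 to 1.7, *Cd4* from -4.01 to 1.62, *Gzma* from -0.89 to 1.39, *Gzmb* from -1.05 to 0.89, *Nkg7* from -1.05 to 1.35, *Cd4*/*Cd3e* from -0.99 to 0.3, *Nkg7*/*Cd3e* from -0.21 to 0.4, *Gzma*/*Nkg7* from -0.35 to 0.12, *Cd3e*/*Ptprc* from -0.44 to 0.11, *Gzmk*/*Ptprc* from -0.74 to 0.28. With 1 mouse left out, PDX versus Adult log2 values ran for *Cd4*/*Cd3e* from -0.22 to 0.26. The cause of each turn was not tested.

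All other ratios, and all other tested markers of T cells and cytotoxic lymphocytes, kept their sign in these comparisons. Genes of the other lists were followed across the settings in Old versus Adult mice only, where the other named ones kept their sign. In PDX versus Old mice, leaving out O2 turned the sign of some of them, such as *Ccl5* (-0.85 to 1.68) and *Cxcl13* (-2.28 to 0.66). Others kept it, such as *Ctla4* (-2.84 and -2.15) and *Itga2* (-2.76 and -2.98). The levels of the 10 genes rest on few read pairs, so small differences were not detectable at this depth. For the 9 of them that were tested, standard errors were larger on all 15 mice than without O2.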
